A study of Mus musculus with 69 samples.

Results

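The rows of 8 genes that respond to glucocorticoid hormone or receive it were taken by symbol from a table of read counts of mouse kidney RNA, and all 8 were found among its 24411 genes. They were Nr3c1, Tsc22d3, Fkbp5, Zbtb16, Klf9, Klf15, Cebpb and Cebpd. The table held 69 libraries, of which 48 were pulldowns of newly made RNA and 21 were total kidney RNA of control mice. All mice carried 1 allele of Uprt, a parasite enzyme that lets 4-thiouracil (4-TU) enter RNA, which Cre switched on, and all, controls included, received 430 mg/kg of 4-TU at 4 hours before the kidney was taken. The genotype was Hoxb7Cre;UPRTf/+, in which Cre acts throughout the collecting duct, or Atp6b1v1Cre;UPRTf/+, as the labels spell the Atp6v1b1 driver, in which it acts in intercalated cells and in cells of mixed identity. Controls were compared with mice at 24 hours after 10 minutes of clamping of both renal pedicles (iAKI, ischemia) and with mice kept for 72 hours without food and water (vAKI, volume depletion). Mice were 5.5 months old, except 5 control pulldowns and 5 control total RNA libraries of mice of 3 months. The male pulldowns at 5.5 months comprised 4 controls, 4 ischemia and 3 volume depletion libraries in Hoxb7Cre, and 4, 3 and 4 in Atp6b1v1Cre. The labels number libraries and do not name mice, so p-values measure the spread between these libraries.

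Glucocorticoid (corticosterone in mice) binds the glucocorticoid receptor, which leaves its chaperone complex, enters the nucleus and binds glucocorticoid response elements in DNA, raising some genes and lowering others, among them many inflammatory genes. In principal cells of the collecting duct the enzyme Hsd11b2 inactivates the hormone, which keeps the mineralocorticoid receptor, a receptor that binds the same DNA element, available to aldosterone. Nr3c1 encodes the glucocorticoid receptor. Tsc22d3 encodes GILZ, an antiinflammatory protein and regulator of sodium transport. Fkbp5 encodes a co-chaperone that lowers the affinity of the receptor for its hormone. Zbtb16 encodes PLZF, a zinc finger repressor. Klf9 and Klf15 encode Krüppel-like factors, the latter with a role in amino acid metabolism during fasting, and Cebpb and Cebpd encode C/EBP factors of the acute phase response. Several of them also respond to fasting or cytokines. Hormone levels were not analysed here.

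The response element joins a pair of short sequences, AGAACA and TGTTCT, set 3 bases apart, and promoters of the genes were read from RefSeq (GRCm38.p6) to show where its letters lie close to the start of transcription. Windows of 300 bases, from 250 before to 50 after a start, were found for 5 of the 8 members, 7 windows in all. The full element, these 6 and 6 letters around 3 bases of any kind, searched on both strands, was in 0 of these 7 and in 3 of all 32851 windows (0.00913%). The looser form GNACA, 3 bases of any kind and TGTNC, which includes it, was in 0 of 7 and in 0.475% of all windows. The single site TGTTCT, on either strand, was in 1 of 7 and in 19.0% of all windows. Windows of 3 genes are shown because they differ in these letters. Tsc22d3 had 3 windows, at 3 starts, and the one shown was chosen because it holds the single site, in capitals, while the other two hold none. That of Fkbp5 holds none. That of Sgk1, a kinase that activates the epithelial sodium channel and a gene that both receptors induce, holds the full element, and a separate single site upstream of it is also in capitals. The windows lie at chrX:140600473-140600772 on the minus strand, chr17:28486100-28486399 on the minus strand and chr10:21993640-21993939 on the plus strand, and each is written 5′ to 3′.
Tsc22d3: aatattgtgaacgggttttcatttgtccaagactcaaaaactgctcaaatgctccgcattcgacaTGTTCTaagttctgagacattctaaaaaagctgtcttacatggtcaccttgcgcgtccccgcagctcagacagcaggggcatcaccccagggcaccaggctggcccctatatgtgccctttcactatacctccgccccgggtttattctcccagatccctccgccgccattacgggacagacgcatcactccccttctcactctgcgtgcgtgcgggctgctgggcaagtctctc
Fkbp5: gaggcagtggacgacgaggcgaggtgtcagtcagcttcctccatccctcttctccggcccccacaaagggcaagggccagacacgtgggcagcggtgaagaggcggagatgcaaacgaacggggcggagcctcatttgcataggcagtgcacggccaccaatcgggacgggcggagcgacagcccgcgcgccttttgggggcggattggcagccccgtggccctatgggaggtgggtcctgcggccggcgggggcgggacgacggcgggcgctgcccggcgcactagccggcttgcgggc
Sgk1: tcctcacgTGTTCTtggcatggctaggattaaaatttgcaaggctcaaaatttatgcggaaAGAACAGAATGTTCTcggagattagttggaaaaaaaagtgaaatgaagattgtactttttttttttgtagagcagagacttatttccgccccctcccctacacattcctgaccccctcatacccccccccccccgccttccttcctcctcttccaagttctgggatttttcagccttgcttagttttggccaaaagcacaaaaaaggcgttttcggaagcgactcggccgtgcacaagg
A match is a description of letters and does not show that a receptor binds there, and no match says only that the letters are not in the window.

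Libraries held from 12618060 to 30305460 counts, with a median of 20868430. Against total kidney RNA, all 4 principal cell markers were higher in Hoxb7Cre control pulldowns (median log2 fold change 1.38) and 3 of 4 intercalated cell markers were higher in those of Atp6b1v1Cre (median 1.69). The 4 proximal tubule markers were lower in both (median -2.92) but remained at a summed 1473 to 2448 CPM in the male Hoxb7Cre controls. In such bulk RNA, fewer cells of a type and less RNA per cell cannot be told apart. Library numbers in the labels fall into 3 runs, called series A, B and C here, and the labels do not say what separates them. All 14 Hoxb7Cre injury pulldowns belonged to series A, whereas male Hoxb7Cre controls 2 and 3 belonged to A and 4 and 5 to B. Some results of the members are therefore also given within series A. Those of the gene lists are given over all series only.

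After volume depletion 6 of the 8 genes rose in male Hoxb7Cre pulldowns and 4 of 8 in those of Atp6b1v1Cre. After ischemia 5 of 8 fell in Atp6b1v1Cre and none passed the test in Hoxb7Cre. Levels were compared by edgeR's quasi-likelihood test, and changed genes had an adjusted p under 0.05 over all 21175 tested genes. Of these, differentially expressed genes (DEGs) rose or fell by 1 or more on the log2 scale, and SE below is the standard error of a log2 fold change. The 6 genes that rose after volume depletion in Hoxb7Cre were all DEGs, against 35.5% of all tested genes called in either direction, 17.9% called higher and 16.4% called as DEGs. In all 6 the groups did not overlap, as in 19.7% of all genes in that direction. The 4 that rose in Atp6b1v1Cre stand against 14.6% of all genes called and 8.11% called higher. Volume depletion libraries there stood above all controls for 4 genes, as for 7.05% of all genes. The 5 that fell after ischemia in Atp6b1v1Cre stand against 8.51% called and 4.74% called lower. Ischemia libraries there stood below all controls for 4 genes, as for 9.54% of all genes. In Hoxb7Cre after ischemia 6.13% of all genes were called, and of the members 0 were called by edgeR, 0 by DESeq2 and 0 had an unadjusted p under 0.05. The median log2 fold change of the 8 genes was 1.64 and 0.69 after volume depletion and 0.02 and -0.57 after ischemia, in Hoxb7Cre and Atp6b1v1Cre in that order, and the median of all genes was 0.00 in each comparison. Ischemia and volume depletion share their controls within a driver.

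Markers of cell types moved with these groups. In Hoxb7Cre all 4 principal cell markers fell after both stimuli, with their sum at 2383 to 3017 CPM in controls, 768.8 to 994 CPM after ischemia and 949.8 to 1056 CPM after volume depletion, and 2 of 3 thick ascending limb markers fell after volume depletion (summed 1335 to 2328 CPM in controls and 772 to 857 CPM). In Atp6b1v1Cre 2 of 4 intercalated cell markers fell after volume depletion, with the sum of the 4 at 604 to 834 CPM in controls and 377 to 545 CPM. All 4 injured tubule markers rose after ischemia with both drivers, their sum going from 10.7 to 17.2 CPM in controls to 75.5 to 418 CPM in Hoxb7Cre, and from 4.48 to 14.7 CPM to 19.4 to 473 CPM in Atp6b1v1Cre. None of the 4 passed after volume depletion. In Atp6b1v1Cre 1 of 4 proximal tubule markers fell after ischemia, and their sum was at 1578 to 2932 CPM in controls and 679 to 992 CPM. None of these ranges overlapped between a stimulus and its controls, and the part of these cells in the values of the 8 genes was not tested.

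**Figure D1:**
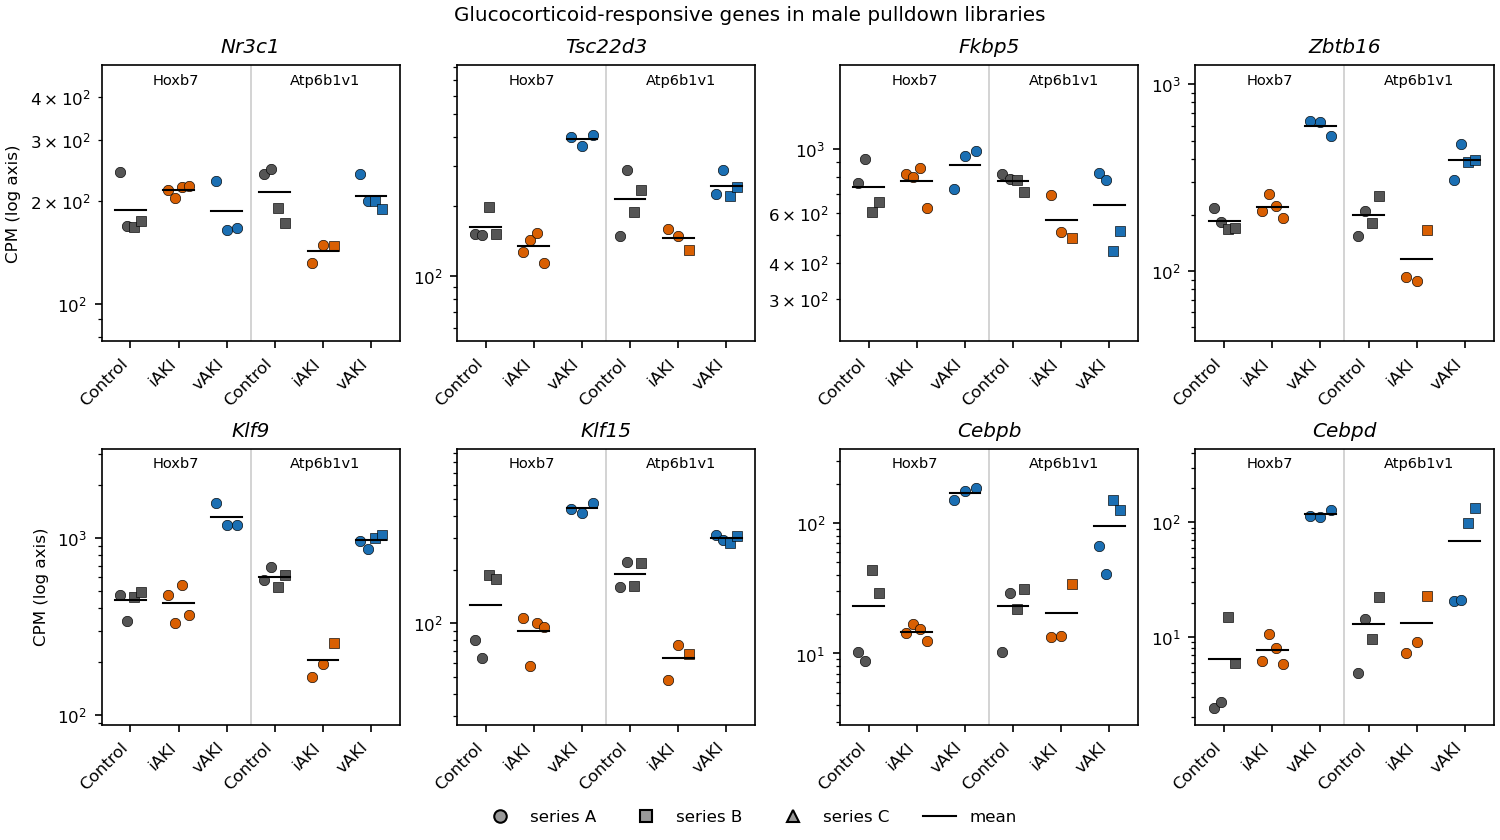
Level of each gene in CPM (log axis) in the 22 male pulldown libraries, by Cre driver and stimulus; points are libraries, shapes are series of library numbers and lines are means. In Hoxb7Cre the volume depletion libraries stand above all controls for 6 genes, and in Atp6b1v1Cre the ischemia libraries stand below all controls for Nr3c1, Fkbp5, Klf9 and Klf15.

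Nr3c1, the receptor (GRCm38 chromosome 18, 39410545 to 39519421, minus strand), was called in neither Hoxb7Cre comparison. Its controls were at 242, 169, 167 and 175 CPM, that is, read counts scaled to the TMM-normalized library size. Ischemia libraries were at 215, 203, 219 and 221 CPM, and volume depletion libraries at 227, 164 and 166 CPM. All 3 groups overlapped, and control 2 was the highest library. In Atp6b1v1Cre the controls were at 239, 248, 190 and 172 CPM and volume depletion libraries at 239, 199, 200 and 189 CPM. Ischemia libraries were at 132, 148 and 148 CPM, below every control. Nr3c1 fell there by 0.58 on the log2 scale (SE 0.15, adjusted p = 0.0213). The log2 fold change was -0.81 (adjusted p = 0.00619) within series A and -0.29 (adjusted p = 0.36) within series B, which held 1 ischemia library. After volume depletion its log2 fold change was -0.01 (SE 0.15, adjusted p = 1) in Hoxb7Cre and -0.02 (SE 0.14, adjusted p = 0.996) in Atp6b1v1Cre.

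Tsc22d3 (GILZ; chromosome X, 140539528 to 140600659, minus strand) rose after volume depletion in the Hoxb7Cre pool. Its 4 controls were at 153, 151, 199.8 and 152 CPM, and the volume depletion libraries at 398, 365 and 406 CPM, without overlap. Ischemia libraries were at 127, 144, 154 and 114 CPM, overlapping the controls. The rise was 1.26 (SE 0.17, adjusted p = 6.47e-06), and 1.37 (adjusted p = 3.10e-05) within series A. In Atp6b1v1Cre the controls were spread from 149 to 287 CPM and enclosed all but the highest of the volume depletion libraries, at 226, 288, 221 and 242 CPM. Their log2 fold change was 0.20 (SE 0.16, adjusted p = 0.444). Ischemia libraries of Atp6b1v1Cre were at 160, 149 and 130 CPM, a fall of 0.57 on the log2 scale (SE 0.17, adjusted p = 0.0415) with overlapping groups. That call was lost in 15 of the alternatives, among them series A alone (-0.51, adjusted p = 0.129).

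Fkbp5 (chromosome 17, 28399094 to 28517527, minus strand), a common readout of glucocorticoid receptor activity, was called in none of the 4 injury comparisons. Its Hoxb7Cre controls were at 763, 928, 605 and 656 CPM and volume depletion libraries at 725, 945 and 985 CPM, and the groups overlapped. The log2 fold change was 0.27 (SE 0.20, adjusted p = 0.318), and 0.08 (adjusted p = 0.799) within series A. Ischemia libraries of Hoxb7Cre were at 819, 798, 862 and 626 CPM, with a log2 fold change of 0.09 (SE 0.18, adjusted p = 0.861). In Atp6b1v1Cre the controls were at 821, 786, 783 and 707 CPM. The ischemia libraries, at 690, 514 and 490 CPM, were all below them, although the log2 fold change of -0.46 (SE 0.20, adjusted p = 0.151) missed the threshold. Volume depletion libraries of Atp6b1v1Cre divided by series. Those of series A were at 825 and 781 CPM, among the controls, and those of series B were at 441 and 517 CPM, below them. The log2 fold change was -0.26 (SE 0.18, adjusted p = 0.384) over both series, 0.00 (adjusted p = 1) within series A and -0.63 (adjusted p = 0.00393) within series B.

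Zbtb16 (PLZF; chromosome 9, 48654297 to 48836222, minus strand) rose after volume depletion with both drivers. In Hoxb7Cre its controls were at 218, 182, 168 and 170 CPM and the volume depletion libraries at 633, 627 and 528 CPM. The rise was 1.70 (SE 0.20, adjusted p = 1.77e-06), and 1.59 within series A. Ischemia libraries of Hoxb7Cre, at 209, 260, 224 and 193 CPM, overlapped the controls. In Atp6b1v1Cre the controls were at 153, 209, 181 and 253 CPM and volume depletion libraries, all above them, at 307, 480, 385 and 394 CPM. The rise there was 0.99 (SE 0.19, adjusted p = 0.00155). Ischemia libraries of Atp6b1v1Cre were at 92.6 and 88.8 CPM in series A and at 167 CPM in series B, the last of them among the controls. Zbtb16 fell by 0.78 on the log2 scale (SE 0.21, adjusted p = 0.021). The log2 fold change was -1.01 (adjusted p = 0.00386) within series A and -0.38 (adjusted p = 0.342) within series B.

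Klf9 (chromosome 19, 23141226 to 23168134, plus strand) moved in opposite directions after the 2 stimuli in Atp6b1v1Cre. Its controls there were at 580, 689, 528 and 623 CPM. Ischemia libraries were at 164, 194 and 254 CPM and volume depletion libraries at 961, 874, 1007 and 1048 CPM. None of the 3 groups overlapped. Klf9 fell by 1.58 on the log2 scale (SE 0.19, adjusted p = 1.55e-04) after ischemia and rose by 0.70 (SE 0.17, adjusted p = 0.00806) after volume depletion. The rise was 0.53 (adjusted p = 0.159) within series A and 0.84 (adjusted p = 6.06e-04) within series B, and the fall was called within both series. In Hoxb7Cre the controls were at 480, 341, 465 and 499 CPM, and ischemia libraries at 475, 332, 540 and 370 CPM overlapped them. Volume depletion libraries of Hoxb7Cre were at 1596, 1197 and 1197 CPM, a rise of 1.58 (SE 0.18, adjusted p = 1.23e-06).

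Klf15 (chromosome 6, 90462576 to 90475238, plus strand) showed the same order of groups in Atp6b1v1Cre. Its controls were at 159, 220, 161 and 218 CPM, ischemia libraries at 47.6, 75.2 and 67.1 CPM and volume depletion libraries at 312, 292, 283 and 310 CPM. The groups did not overlap. Klf15 fell after ischemia, with a log2 fold change of -1.59 (SE 0.29, adjusted p = 0.00243), but the log2 fold change of 0.68 (SE 0.26, adjusted p = 0.0845) after volume depletion missed the threshold, and it passed within series B (0.65, adjusted p = 0.00685). In Hoxb7Cre the controls divided by series, at 80.3 and 63.3 CPM in A and at 187 and 177 CPM in B. Ischemia libraries, all of series A, were at 106.9, 57.4, 100.1 and 95.4 CPM, between the 2 sets of controls or below them. Volume depletion libraries were at 436, 413 and 475 CPM, above every control. Klf15 rose by 1.798 (SE 0.28, adjusted p = 3.44e-05) against all 4 controls and by 2.63 (adjusted p = 3.26e-07) within series A.

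Cebpb (chromosome 2, 167688915 to 167690418, plus strand), a single-exon gene, was among the lowest members in controls and rose several-fold after volume depletion. Its Hoxb7Cre controls were at 10.2 and 8.82 CPM in series A and at 43.9 and 29.3 CPM in series B. Volume depletion libraries, at 151, 177 and 186 CPM, stood above both sets. The rise was 2.89 (SE 0.49, adjusted p = 7.99e-05), and 4.18 (adjusted p = 5.67e-08) within series A. Ischemia libraries of Hoxb7Cre were at 14.4, 16.7, 15.3 and 12.5 CPM, with a log2 fold change of -0.64 (SE 0.45, adjusted p = 0.463) against all controls and 0.62 (adjusted p = 0.182) within series A, so that the sign turned. In Atp6b1v1Cre the controls were at 10.2, 29.3, 21.9 and 31.04 CPM and volume depletion libraries at 66.7, 40.9, 149.6 and 126 CPM. The rise there was 2.06 (SE 0.46, adjusted p = 0.00431). Ischemia libraries of Atp6b1v1Cre, at 13.3, 13.6 and 34.4 CPM, overlapped the controls.

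Cebpd (chromosome 16, 15887286 to 15891031, plus strand) had the largest fitted log2 fold change of the 8 genes after volume depletion with both drivers. In Atp6b1v1Cre this order turned within series A, where Cebpd rose by 1.12 and Cebpb by 1.45. The study had picked it among its volume depletion genes from these libraries, so its direction is not independent evidence. Hoxb7Cre controls were at 2.40, 2.71, 14.9 and 6.00 CPM and volume depletion libraries at 114, 110.4 and 127 CPM. The rise was 4.18 (SE 0.66, adjusted p = 3.98e-05), and 5.53 (adjusted p = 1.96e-08) within series A. Ischemia libraries of Hoxb7Cre, at 6.23, 10.7, 8.09 and 5.89 CPM, lay within the range of the controls. Their log2 fold change was 0.26 (SE 0.60, adjusted p = 0.879) against all controls, and 1.59 (adjusted p = 0.00665) against the 2 controls of series A. Cebpd was the only gene of the 8 called after ischemia in Hoxb7Cre within that series. In Atp6b1v1Cre the controls were at 4.86, 14.5, 9.71 and 22.5 CPM. Volume depletion libraries were at 20.6 and 21.1 CPM in series A, within the range of the controls, and at 98.2 and 133 CPM in series B. The rise of 2.41 (SE 0.59, adjusted p = 0.0089) over both was 1.12 (adjusted p = 0.0423) within series A alone and 2.84 (adjusted p = 1.71e-04) within series B. Ischemia libraries of Atp6b1v1Cre were at 7.35, 9.11 and 23.02 CPM, with a log2 fold change of 0.02 (SE 0.62, adjusted p = 1).

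Volume depletion and ischemia were then compared directly. In Atp6b1v1Cre 7 of the 8 genes were higher after volume depletion, all but Fkbp5, where 29.3% of all genes differed. In Hoxb7Cre 6 of 8 were higher, all but Fkbp5 and Nr3c1, where 33.3% of all genes differed. Klf9 differed by 2.28 (SE 0.20, adjusted p = 1.75e-07) in Atp6b1v1Cre and by 1.62 (SE 0.18, adjusted p = 1.09e-06) in Hoxb7Cre. Klf15 differed by 2.27 (SE 0.30, adjusted p = 1.47e-05) and 2.29 (SE 0.28, adjusted p = 3.14e-06), in the same order. For the receptor the difference was 0.56 (SE 0.15, adjusted p = 0.00794) in Atp6b1v1Cre and -0.21 (SE 0.15, adjusted p = 0.308) in Hoxb7Cre. For Fkbp5 it was 0.21 (SE 0.20, adjusted p = 0.466) and 0.18 (SE 0.20, adjusted p = 0.514).

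The response of a gene with one driver was set against that with the other in 16 tests, each of its log2 fold change in Atp6b1v1Cre minus that in Hoxb7Cre. It passed in 3 of 8 genes for ischemia, where 7.79% of all genes passed, and in 2 of 8 for volume depletion, where 4.20% did. After ischemia the difference was -1.53 (SE 0.25, adjusted p = 0.00319) for Klf9, -1.06 (SE 0.28, adjusted p = 0.023) for Zbtb16 and -0.78 (SE 0.21, adjusted p = 0.0237) for Nr3c1. After volume depletion it was -1.06 (SE 0.23, adjusted p = 0.0101) for Tsc22d3 and -0.88 (SE 0.25, adjusted p = 0.0454) for Klf9. For Cebpd, whose rises were 4.18 and 2.41, the difference of -1.78 (SE 0.84, adjusted p = 0.254) did not pass. The count of 5 moved from 0 to 10 over the alternatives given in the closing section, and 10 passed within series A.

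The other genes of the hormone response were read from lists of genes known from other tissues, chosen with earlier results of these data known. Of 28 further genes that glucocorticoid induces, 22 rose and 0 fell after volume depletion in Hoxb7Cre, where 17.9% of all genes rose, with a median log2 fold change of 2.01. The 5 largest rises were those of Zfp36, which degrades cytokine mRNA (3.64, SE 0.40, adjusted p = 6.23e-07), Ddit4, an inhibitor of mTORC1 (3.36, SE 0.53, adjusted p = 3.98e-05), Dusp1, a MAP kinase phosphatase (3.34, SE 0.36, adjusted p = 5.84e-07), Rasd1 (3.13, SE 0.55, adjusted p = 1.27e-04) and Errfi1, an inhibitor of the EGF receptor (3.12, SE 0.32, adjusted p = 3.34e-07). In Atp6b1v1Cre, where 8.11% of all genes rose, 13 of 28 rose and 0 fell (median 0.84), led by Rasd1 at 2.56, Irs2 at 2.28, Pdk4 at 2.24, Zfp36 at 2.21 and Dusp1 at 2.10. Pdk4, which restrains glucose oxidation, and Irs2, of the insulin pathway, also respond to fasting. The study had picked Zfp36, Dusp1 and Irs2 from these libraries, and it names Pdk4 among its volume depletion genes. The rises of these genes, and the counts that include them, are therefore not independent evidence. After ischemia 9 of 28 fell and 0 rose in Atp6b1v1Cre, where 4.74% of all genes fell (median -0.80), with Irs2 at -1.56, Usp2 at -1.52, Glul at -1.41, Errfi1 at -1.26 and Lpin1 at -1.25. In Hoxb7Cre after ischemia, where 6.13% of all genes were called in either direction, 1 of 28 fell, Glul at -0.79 (SE 0.22, adjusted p = 0.031), and 0 rose (median -0.06). Of 14 inflammatory genes that glucocorticoid represses, 10 rose and 0 fell after volume depletion in Hoxb7Cre (median 2.59), where the cytokine Il6 rose by 5.38 (SE 0.86, adjusted p = 4.57e-05) and the chemokines Cxcl2 and Cxcl1 by 5.00 and 4.78. Over the 10 Hoxb7Cre control pulldowns of both sexes, Cxcl2 was at 0.08 to 1.27 CPM and Cxcl1 at 0.53 to 11.5 CPM. Fold changes of such genes start from few reads. In Atp6b1v1Cre 6 of 14 rose (median 1.09), led by Cxcl1 at 3.07. After ischemia 1 of 14 rose with each driver, Il6 at 3.28 (SE 0.97, adjusted p = 0.0462) in Hoxb7Cre and Ccl2 at 1.73 (SE 0.52, adjusted p = 0.0396) in Atp6b1v1Cre. These counts lie near the shares of all genes called there in either direction, 6.13% and 8.51%.

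**Figure D2:**
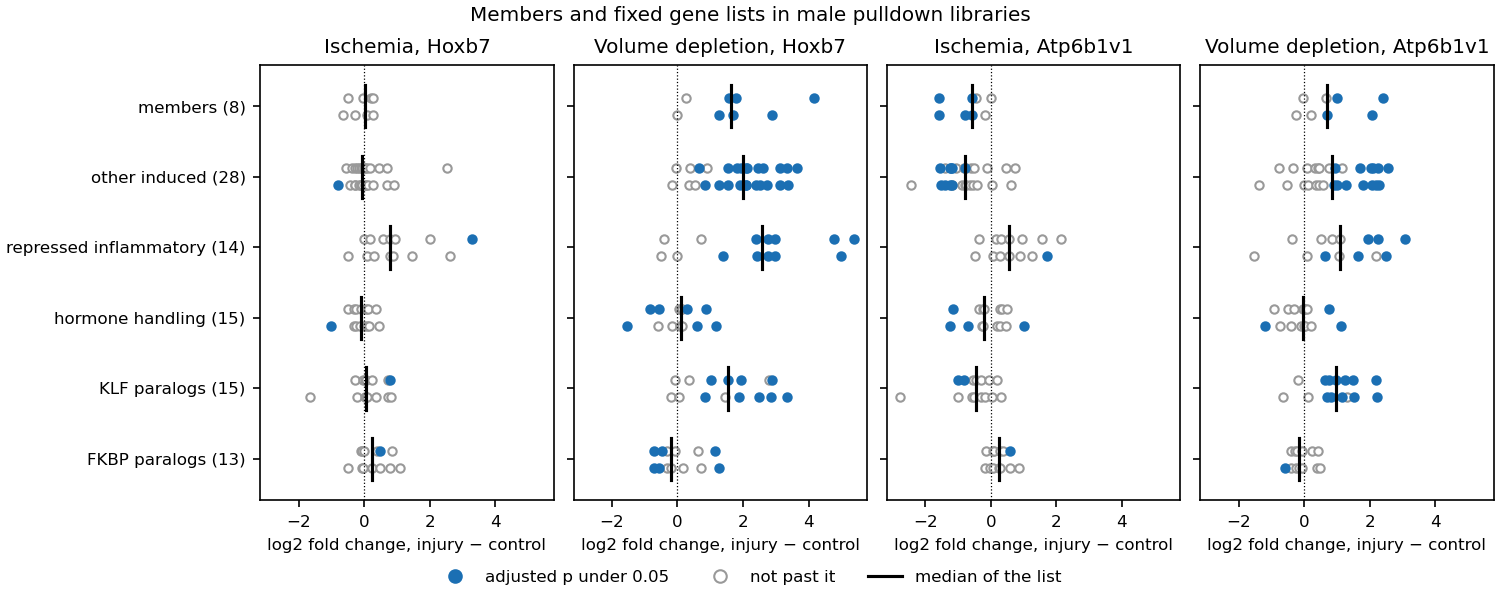
Log2 fold change of each gene of the members and of 5 lists against control in the 22 male pulldown libraries, by stimulus and driver; filled points passed an adjusted p of 0.05 and black bars are list medians. After volume depletion in Hoxb7Cre, 22 of 28 other induced genes and 10 of 14 repressed inflammatory genes rose together with 6 members; after ischemia in Atp6b1v1Cre, 9 of the 28 fell.

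Sgk1, shown above for its promoter, rose with both drivers after volume depletion and was taken for its sequence after its values were seen. Its Hoxb7Cre controls were at 482, 337, 896 and 634 CPM and volume depletion libraries at 2384, 2489 and 1846 CPM, a rise of 1.93 (SE 0.30). In Atp6b1v1Cre the controls were at 224.5, 589, 338 and 538.5 CPM and volume depletion libraries at 1668, 1913, 1617 and 1781 CPM, a rise of 2.06 (SE 0.29). Neither pair of groups overlapped.

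Among 15 genes of hormone handling and of the receptor complex, 4 rose and 3 fell after volume depletion in Hoxb7Cre. That 7 of 15 were called lies near the 35.5% of all genes called there. Hsd11b2, which inactivates the hormone, was at 125, 176.5, 97.1 and 85.3 CPM in Hoxb7Cre controls. It was at 31.9, 39.1 and 53.1 CPM after volume depletion, a fall of 1.54 on the log2 scale (SE 0.33, adjusted p = 8.29e-04), and at 70.7, 56.6, 48.1 and 63.15 CPM after ischemia, a fall of 1.00 (SE 0.29, adjusted p = 0.0435). Both groups lay below every control. The principal cell markers given above were also lower in both comparisons, and their part in the values of Hsd11b2 was not tested. In Atp6b1v1Cre Hsd11b2 was at 57.5, 48.03, 74.1 and 55.0 CPM in controls and at 179, 124 and 54.9 CPM after ischemia, a rise of 1.01 (SE 0.31, adjusted p = 0.0456) in which the library of series B, the last value, lay among the controls. Nr3c2, the mineralocorticoid receptor, rose after volume depletion by 0.60 (SE 0.21, adjusted p = 0.0274) in Hoxb7Cre and by 0.77 (SE 0.19, adjusted p = 0.0102) in Atp6b1v1Cre. Nrip1, a corepressor, rose by 1.19 and 1.11 after volume depletion and fell by 1.24 after ischemia in Atp6b1v1Cre. Hsd11b1, which regenerates active hormone, fell in Atp6b1v1Cre, by 1.15 after ischemia and by 1.20 after volume depletion.

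Relatives of the members were read to see how the families behaved. Of 15 other Krüppel-like factor genes, 9 rose after volume depletion in Hoxb7Cre and 11 in Atp6b1v1Cre, against 17.9% and 8.11% of all genes, with medians of 1.53 and 0.96. Klf2, Klf10 and Klf4 rose by 3.36, 2.89 and 2.85 in Hoxb7Cre, and Klf11 and Klf10 by 2.22 and 2.21 in Atp6b1v1Cre. After ischemia 1 of 15 rose in Hoxb7Cre, Klf6 at 0.79, and 2 fell in Atp6b1v1Cre, where Klf3 fell by 0.83 and Klf13 fell by 1.00. Of all genes, 6.13% were called there in Hoxb7Cre and 4.74% were called lower in Atp6b1v1Cre. Of 13 other FKBP genes, 2 rose and 4 fell after volume depletion in Hoxb7Cre (median -0.20), with Fkbp10 at 1.27 and Fkbp15 at -0.72, and 1 fell in Atp6b1v1Cre, Fkbp9 at -0.58. These 6 and 1 of 13 stand against 35.5% and 14.6% of all genes called, so the FKBP genes were called at about the share of all genes or below it. Of the 3 relatives of Tsc22d3, Tsc22d1 rose after volume depletion by 2.43 (SE 0.25) in Hoxb7Cre and by 1.70 (SE 0.23) in Atp6b1v1Cre. Of the 3 other C/EBP genes tested, Cebpa rose by 0.59 (SE 0.20, adjusted p = 0.0203) after volume depletion in Hoxb7Cre and fell by 0.87 (SE 0.18, adjusted p = 0.00776) after ischemia.

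Female pulldowns, at 5.5 months, were fitted apart, with 4 controls, 3 ischemia and 4 volume depletion libraries in Hoxb7Cre and 4, 3 and 3 in Atp6b1v1Cre. After volume depletion in Atp6b1v1Cre 5 of 8 genes rose, where 18.0% of all genes were called, with Cebpd at 2.87 (SE 0.77, adjusted p = 0.0155), Cebpb at 1.99, Klf9 at 1.41, Zbtb16 at 1.11 and Klf15 at 0.98. After ischemia Klf15 fell by 1.76 (SE 0.35, adjusted p = 0.0159) and Klf9 by 1.57 (SE 0.32, adjusted p = 0.0171), where 2.66% were called. In Hoxb7Cre after volume depletion 0 of 8 genes were called by edgeR, 2 had an unadjusted p under 0.05 and 0.109% of all genes were called. After ischemia in Hoxb7Cre 2 of 8 fell, where 3.14% were called, Zbtb16 by 1.43 (SE 0.39, adjusted p = 0.0495) and Klf9 by 1.42 (SE 0.32, adjusted p = 0.0296). An unadjusted p under 0.05 was reached by 6 of 8. Cebpd at -2.60, Cebpb at -2.31, Klf15 at -1.17 and Tsc22d3 at -1.11 missed the threshold (adjusted p from 0.0568 to 0.0854). Fkbp5 and Nr3c1 were at 0.37 and 0.05. All female Hoxb7Cre injury libraries were of series A, and most of their controls were of series B and C. Stimulus and series are therefore mixed in these comparisons.

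**Figure D3:**
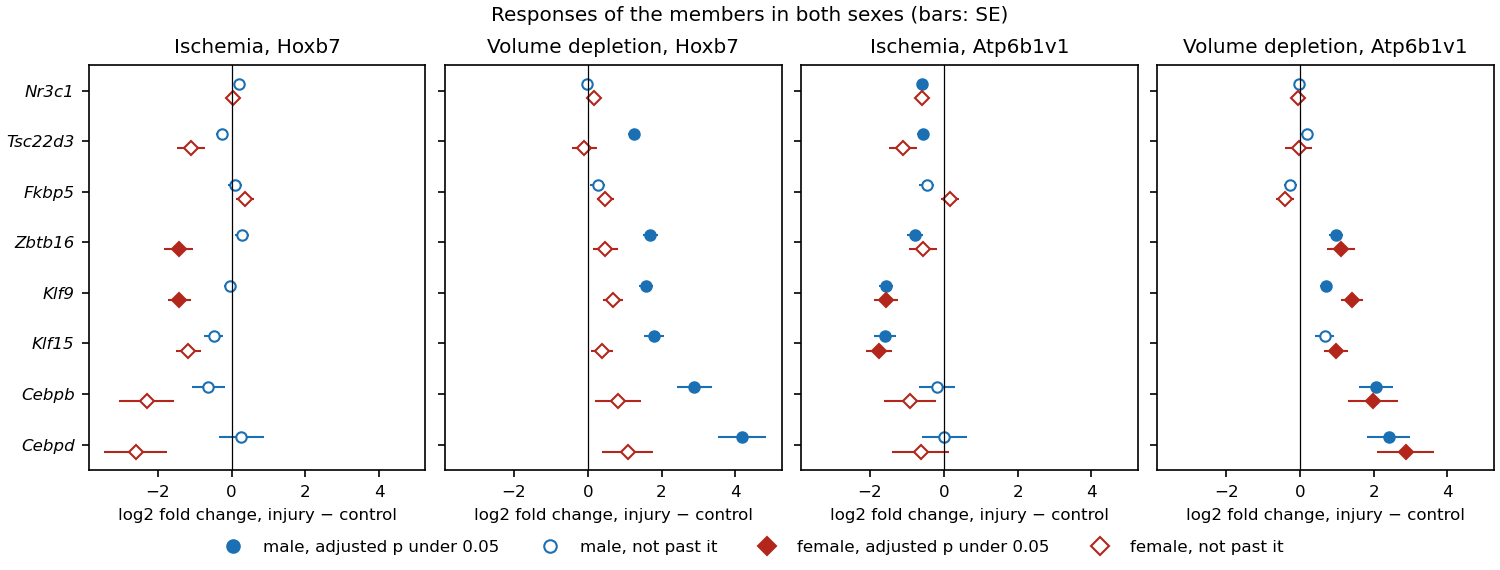
Log2 fold change against control (x axis) of each gene in male (circles) and female (diamonds) pulldowns, by stimulus and driver; bars are standard errors and filled symbols passed an adjusted p of 0.05. In Hoxb7Cre after volume depletion 6 male and 0 female symbols are filled; in Atp6b1v1Cre 4 male and 5 female symbols are.

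Spread among libraries of 1 group, as edgeR's common dispersion, came to 0.0782 in females and 0.0444 in males. The values that follow are those of female Hoxb7Cre pulldowns. Tsc22d3 was at 230, 73.5, 315 and 259 CPM in the controls and at 206, 236, 140.3 and 244 CPM after volume depletion, with overlap. Zbtb16 was at 355, 151, 232 and 201 CPM in controls and at 249.6, 315, 181 and 566 CPM after volume depletion. Klf9 was at 469.6, 545, 719.7 and 550.3 CPM in controls and at 589.9, 885, 594 and 1604 CPM. In each of these genes volume depletion library 5, the last value, was the highest of its group, and control 6 was the lowest control for Tsc22d3 and Zbtb16. Cebpd was at 5.13 CPM in the female control of series A and at 26.6, 38.1 and 25.1 CPM in the 3 of series B and C, against 12.3, 37.9, 12.9 and 138 CPM after volume depletion, all series A.

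**Figure D4:**
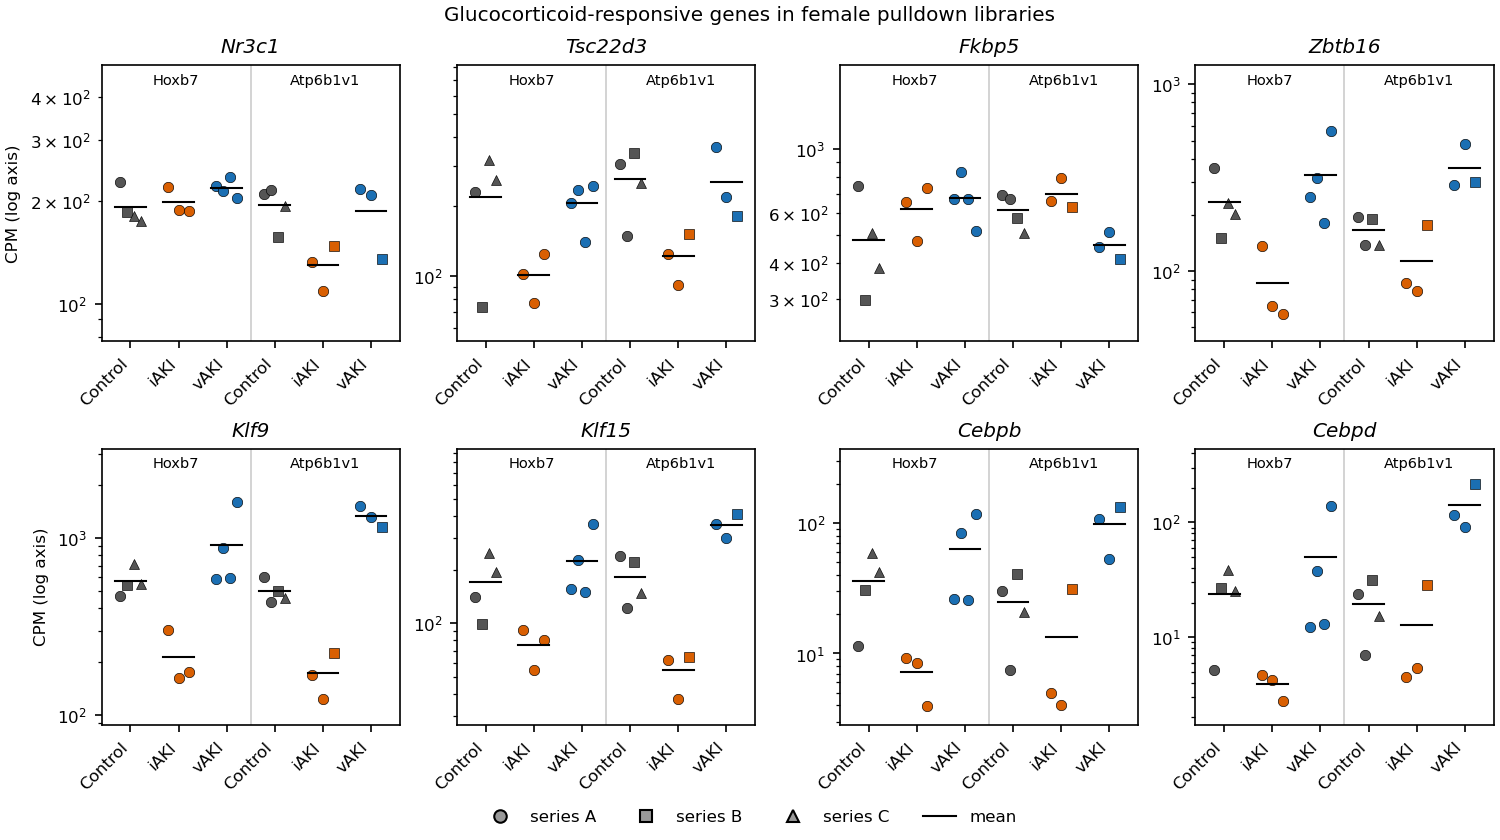
Level of each gene in CPM (log axis) in the 21 female pulldown libraries at 5.5 months, by Cre driver and stimulus; points are libraries, shapes are series of library numbers and lines are means. In Hoxb7Cre the volume depletion libraries overlap the controls for all 8 genes, and in Atp6b1v1Cre they stand above all controls for Zbtb16, Klf9, Klf15, Cebpb and Cebpd, as they do for 15.0% of all genes.

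The difference between the sexes was tested in one fit of 43 pulldowns, as the male minus the female log2 fold change, in 32 tests. It passed in 6, all in Hoxb7Cre, and all 6 were positive. After volume depletion, where 16.0% of all genes passed, it was 3.10 (SE 1.02, adjusted p = 0.0341) for Cebpd, 1.41 (SE 0.44, adjusted p = 0.0257) for Klf15, 1.35 (SE 0.40, adjusted p = 0.0209) for Tsc22d3 and 1.22 (SE 0.42, adjusted p = 0.0443) for Zbtb16. After ischemia, where 10.5% passed, it was 1.72 (SE 0.43, adjusted p = 0.013) for Zbtb16 and 1.39 (SE 0.35, adjusted p = 0.0134) for Klf9. In Atp6b1v1Cre 0 of 16 passed by edgeR, as did 0 of all genes, and 0 of 16 passed by DESeq2, with an unadjusted p under 0.05 in 1, Klf9 after volume depletion. Series A left 1 female and 2 male Hoxb7Cre controls, so a count of passing tests within it cannot show whether the sexes differ. The other female controls of that driver were of series B and C and the other male ones of series B. All Hoxb7Cre injury libraries were of series A. The sexes thus also differ in the series of their controls, and the 6 differences cannot be fully told apart from that. The count was 2 without female volume depletion library 3 or female control 9 of Hoxb7Cre, and 3 without male controls 2 or 3, male volume depletion library 7 or female volume depletion library 1 of that driver.

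Levels in control mice were compared between genes per kilobase of merged exon in GENCODE M21, since the annotation used for counting is not given in the sources used here. In the 10 Hoxb7Cre control pulldowns the median level was 101.6 CPM per kb for Klf9, 59.6 for Fkbp5, 57.0 for Klf15, 40.6 for Tsc22d3, 33.3 for Zbtb16, 22.7 for Nr3c1, 19.5 for Cebpb and 2.85 for Cebpd. Each gene overlapped its neighbors in this order in range, as with Klf9 (70.9 to 149 CPM per kb) and Fkbp5 (31.5 to 97.99). In the 11 Atp6b1v1Cre control pulldowns the order was the same. There Klf9, from 90.5 to 188 CPM per kb, stood apart from Fkbp5, from 53.7 to 86.8, and the other neighbors overlapped. In total RNA Klf9 (median 69.996), Klf15 (66.6) and Fkbp5 (66.3) overlapped, and Cebpd was again the lowest, at a median of 6.98 CPM per kb.

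Pulldown and total RNA of control mice of both sexes differed in 4 of the 8 genes for each driver, where 66.6% (Hoxb7Cre) and 63.8% (Atp6b1v1Cre) of all genes differed, so the share of members called was below that of all genes. Both kinds of RNA had equal numbers of libraries for each driver, sex and age. The labels do not pair them, and the fit treated all libraries as separate. Nr3c1 averaged 183 ± 28.5 CPM (SD, n = 10) with Hoxb7Cre, 201 ± 27.2 CPM (SD, n = 11) with Atp6b1v1Cre and 107.9 ± 13.8 CPM (SD, n = 21) in total RNA, and neither pulldown overlapped total RNA. Its log2 difference from total RNA was 0.83 (SE 0.07, adjusted p = 1.31e-14) and 0.93 (SE 0.07, adjusted p = 1.09e-16), where the median of all genes was 0.11 for both. Klf9 was higher by 0.71 and 0.88 and Zbtb16 by 0.99 and 0.74. Cebpd was lower by 1.00 on the log2 scale in Hoxb7Cre (SE 0.28, adjusted p = 0.00188), and Cebpb had a difference of -0.57 (SE 0.26, adjusted p = 0.0475) in Atp6b1v1Cre. For Tsc22d3 the difference was -0.13 (SE 0.17) and 0.21 (SE 0.16), and for Fkbp5 -0.05 (SE 0.13) and 0.09 (SE 0.12), and none of these passed. Between the pulldowns of the 2 drivers 0 of 8 genes differed by edgeR or by DESeq2, 0 had an unadjusted p under 0.05, and 9.93% of all genes differed. Klf15 came nearest there, at 0.32 (SE 0.17, adjusted p = 0.289).

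Between female and male controls, in the same fit, 4 of 8 genes differed, where 30.3% of all genes did. If mice entered that fit with both kinds of RNA, its p-values for sex are too small. Cebpd was higher in females by 0.89 (SE 0.22, adjusted p = 0.00196). Fkbp5, Klf9 and Nr3c1 were lower in females, with differences of -0.46 (SE 0.10, adjusted p = 5.76e-04), -0.26 (SE 0.08, adjusted p = 0.00788) and -0.16 (SE 0.06, adjusted p = 0.0277). In total RNA alone 4 genes passed and in pulldowns alone 0.

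How the genes varied among control mice was read from pairs of members, as Pearson's r of log2 CPM after the mean of each driver and sex was removed, with a permutation test of 100000 draws and adjustment over 56 tests. In 21 total RNA libraries 4 of 28 pairs passed, all positive. In 21 control pulldowns 7 passed with a positive and 1 with a negative r. Both kinds of RNA may come from the same mice, so passing in both is not independent evidence. Cebpb and Cebpd varied together in both, with r = 0.80 (rho = 0.79, adjusted p = 9.33e-04) in total RNA and r = 0.94 (rho = 0.94, adjusted p = 2.80e-04, which rests on the smallest p that the permutations can give) in pulldowns. In pulldowns r was 0.97, 0.88 and 0.90 within series A, B and C, which held 7, 8 and 6 libraries. Tsc22d3 and Klf15 also did, with r = 0.83 (rho = 0.61, adjusted p = 0.0136) in total RNA and r = 0.73 (rho = 0.77, adjusted p = 2.80e-04) in pulldowns. Without the 2 libraries farthest from the median of Tsc22d3, r in total RNA was 0.55 (adjusted p = 0.203), while it held in pulldowns at 0.66. With all libraries, r in total RNA was 0.79, 0.91 and 0.67 within series A, B and C.

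Klf15 and Cebpb passed in both kinds of RNA, with r = 0.53 (rho = 0.52, adjusted p = 0.0212) in total RNA and r = 0.81 (rho = 0.83, adjusted p = 0.00112) in pulldowns. In total RNA r was 0.36 (adjusted p = 0.144) without the 2 farthest libraries and -0.08, 0.84 and 0.20 within series A, B and C, so that relation rested on few libraries, while in pulldowns it was 0.82, 0.68 and 0.95 within the series. Klf9 and Cebpb passed in pulldowns, with r = 0.77 (rho = 0.79, adjusted p = 0.00213) and 0.81, 0.86 and 0.98 within the series, and had r = 0.19 (adjusted p = 0.617) in total RNA. Fkbp5 and Zbtb16 passed in total RNA, with r = 0.70 (rho = 0.67, adjusted p = 0.00544) and 0.91, 0.51 and 0.28 within the series, and had r = 0.55 (adjusted p = 0.0688) in pulldowns. Differences in r between total RNA and pulldowns were not tested. Fkbp5 and Cebpd had a negative relation in pulldowns, with r = -0.63 (rho = -0.62, adjusted p = 0.0338), which was -0.56 (adjusted p = 0.123) without the 2 farthest libraries and 0.35 within series C. Fkbp5 and Tsc22d3 passed in neither, with r = 0.65 (rho = 0.41, adjusted p = 0.0688) in total RNA and r = 0.27 (rho = -0.11, adjusted p = 0.551) in pulldowns.

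**Figure D5:**
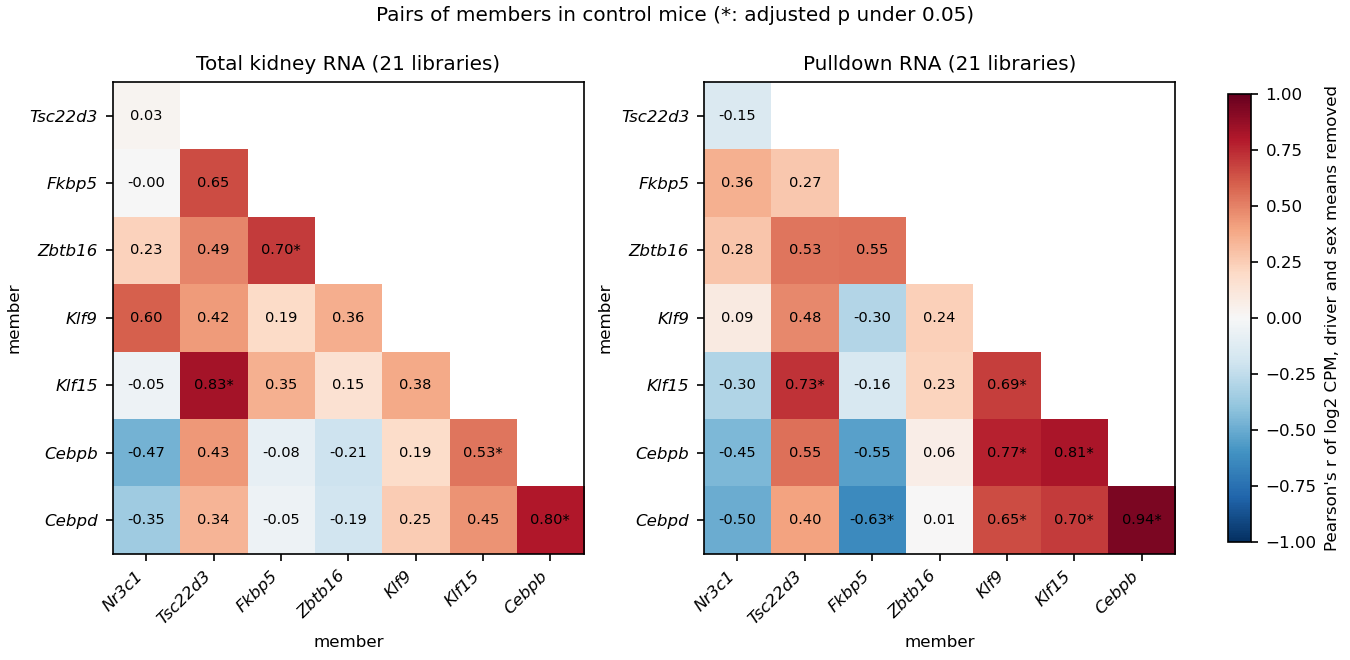
Pearson's r for each pair of members over 21 total RNA (left) and 21 pulldown (right) libraries of control mice, as log2 CPM with driver and sex means removed; color runs from -1 to 1 and asterisks mark an adjusted permutation p under 0.05. Cebpb and Cebpd have the highest r in pulldowns (0.94), and Tsc22d3 and Klf15 in total RNA (0.83).

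The genes whose pattern over the 22 male pulldowns was most like that of a member were ranked by Pearson's r among 12851 genes, as a description, since the libraries share their stimulus. For Tsc22d3 they were Trafd1 (r = 0.93), Sra1 and Cables1, and of the members Klf15 came nearest (r = 0.86, rank 59). For Zbtb16 they were Helz2, Zfp516 and Dusp16 (r = 0.97 each), and Klf9 was the nearest member (r = 0.90, rank 207). For Fkbp5 they were Slc30a2 (r = 0.87), Tgfbrap1 and Tcn2, and no member had an r above 0.27.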

How the data were processed

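Newly made RNA, tagged with 4-TU, was biotinylated and pulled down on streptavidin, and total RNA of control kidneys was kept. The authors deposited raw counts of reads per gene symbol, not normalized. Per the submitters' processing notes these were made with CASAVA 1.8.2, Trimmomatic 0.36, STAR 2.5.3a and HTSeq 0.6.1p2 on mm10, and the annotation is not given in the sources used here. A gene that overlaps another is therefore uncertain. Symbols were used as deposited, and positions are those of GRCm38 in GENCODE M21.

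Counts were analysed with edgeR 4.0.16 (quasi-likelihood test, TMM) and DESeq2 1.42.0 in R 4.3.3, and tables were joined in Python 3.11.15. Genes with at least 2 counts over 69 libraries were tested, 21175 of 24411, all 8 members among them. Libraries held 12618060 to 30305460 counts. For the members, counting error at this depth is small against the spread between libraries (common dispersion 0.0444 in males). The closest pair of libraries in a group differed by a chi-square of 10.2 per degree of freedom, so none was counted as a duplicate. Male injury groups were fitted together (22 libraries), females likewise, the sexes in 43 pulldowns and controls in 42 libraries with sex as covariate. P-values were adjusted by Benjamini-Hochberg over all tested genes. Log2 CPM used a prior count of 2. Tests were checked on simulated counts. The groups shared replicate numbers in the labels, and whether these pair libraries was checked on deviations from group means.

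All members are named. Of the lists, the text names genes changed in a male injury comparison with the largest change, at most 5 a list and comparison, and Sgk1 in addition. The members and lists were chosen with earlier results of these data known.

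The alternatives were DESeq2, its size factors in edgeR, filterByExpr, no filter, the DEG threshold, libraries of 3 months added or left out, both sexes with sex as covariate, females alone, the compared groups alone, a block of the replicate number, a factor of the series, and each library left out in turn. Fits within series A or B, and those of the sexes without each Hoxb7Cre library, were chosen after seeing the data.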

Additional observations from a re-analysis of the deposited data

Results flagged for a closer look

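In 88 pairs of a member and a group of 4 libraries, 5 held a library far from the others by Dixon's test, where chance gives about 1 in 20 (5% of 88). The pairs share libraries across members. Tsc22d3 was at 54.5 CPM in female Hoxb7Cre total RNA 12, the lowest of 4, with the next at 242 CPM. It was at 301 CPM in male Atp6b1v1Cre total RNA 7, with the next at 193 CPM, and at 199.8 CPM in male Hoxb7Cre control pulldown 4, with the next at 153 CPM. Klf15 was at 229 CPM in male Atp6b1v1Cre total RNA 7, with the next at 190.4 CPM. Nr3c1 was at 242 CPM in male Hoxb7Cre control pulldown 2, with the next at 175 CPM.

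In 48 tests of a difference between effects, 11 passed an adjusted p of 0.05 by edgeR. Between the drivers, as Atp6b1v1Cre minus Hoxb7Cre in males, the log2 difference was -0.78 for Nr3c1, -1.53 for Klf9 and -1.06 for Zbtb16 after ischemia, and -0.88 for Klf9 and -1.06 for Tsc22d3 after volume depletion. Between the sexes, as male minus female in Hoxb7Cre, it was 1.39 for Klf9 and 1.72 for Zbtb16 after ischemia, and 3.10 for Cebpd, 1.41 for Klf15, 1.22 for Zbtb16 and 1.35 for Tsc22d3 after volume depletion. The Hoxb7Cre controls of the sexes also differed in series.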

How the results depend on the processing

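Over 3320 values of members under the alternatives, 3133 kept their direction and side of the threshold, 134 fell short of it, 48 passed it and 5 reversed. All 5 reversals were in females alone, with Zbtb16 at -1.43 after ischemia and Tsc22d3 at -0.092 after volume depletion in Hoxb7Cre, and driver differences of 0.87 for Zbtb16 after ischemia, 0.056 for Tsc22d3 and 0.73 for Klf9 after volume depletion. Of the 6 members changed after volume depletion in Hoxb7Cre, 0 were left in females alone, and leaving out single libraries gave 6 to 6. The 4 of Atp6b1v1Cre became 2 as DEGs and 4 to 5 without single libraries. The 0 after ischemia in Hoxb7Cre became 1 with both sexes (Klf15), 2 in females alone, 1 with the series as a factor and 1 within series A (Cebpd in both), and 0 to 0 without single libraries. The 5 after ischemia in Atp6b1v1Cre became 2 as DEGs, 2 in females alone, 3 with the compared groups alone and 2 within series B, and 2 to 5 without single libraries, with 2 when ischemia library 1 or 4 or control 9 was left out and 3 without control 11. Between volume depletion and ischemia, single libraries gave 5 to 7 in Atp6b1v1Cre and 6 to 6 in Hoxb7Cre. The 5 driver differences became 3 as DEGs, 1 with both sexes, 0 in females alone, 9 with the series as a factor, 10 within series A and 3 to 7 without single libraries, with 3 when Hoxb7Cre control 3, or Atp6b1v1Cre control 9 or 11 or ischemia library 1 or 4, was left out. The 6 sex differences became 2 to 9 without single libraries, and series A held too few controls to count them. In controls, the 4 members that differed from total RNA became 1 (Hoxb7Cre) and 0 (Atp6b1v1Cre) as DEGs, the 4 between the sexes became 0 as DEGs, 2 without the mice of 3 months and 0 in pulldowns alone, and the 0 between drivers became 1 in males alone (Klf9). The cause of these moves was not tested, except that fewer libraries enter fits of 1 sex or series. Libraries of the same number showed no common variation (8 pairs, mean r -0.11, range -0.47 to 0.23). Pairs of other numbers ranged from -0.50 to 0.52, so these few pairs cannot show whether a shared number means a shared origin. With the replicate block, 7 members were called after volume depletion and 1 after ischemia in Hoxb7Cre, and 3 and 0 in Atp6b1v1Cre, and 0 of the driver differences. Of all genes, that block called 0 after ischemia in Atp6b1v1Cre. For the driver differences it called 0 of all genes after ischemia and 53 after volume depletion. In females alone 0 of all genes passed a driver difference after either stimulus. Such fits say little about the members. At the depth of these libraries the lowest count of a member in any library was 52, for Cebpd, where counting error is largest.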
